A study of Mus musculus with 3 samples.

Results

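Myelinating Schwann cells (MSC) of the mouse dorsal root ganglion (DRG) were examined here as 1389 nuclei out of 19259 nuclei with more than 1000 detected genes. They were selected on their own transcripts: a nucleus was taken when it held 3 or more unique molecular identifiers (UMIs, counted RNA molecules) summed over Prx, Ncmap, Drp2, Mag, Fa2h, Cldn19 and Sec14l5, from 2 or more of these 7 genes, and when that sum was at least 2 times the UMIs of Snap25, Scn9a, Bcan, Cnmd, Scn7a and Col1a1 together. The DRG at levels L3, L4 and L5 came from C57BL/6 mice with no transgene or injury named, in 1 library from adult animals labelled 3 months old and 2 libraries from aged animals labelled 21 months old (the text on the series' design gives 12 months for the aged mice), and RNA of single nuclei was read by PIP-seq, a droplet method without microfluidics. The number of mice behind each library is not given in the sources used here, and the 2 aged libraries are the only replicates, so age and other differences of the adult library cannot be told apart. The gate took 618 nuclei of the adult library, 565 of the first aged library and 206 of the second. Non-myelinating Schwann cells (NMSC, 1751 nuclei) and satellite glial cells (SGC, 1923 nuclei), gated in the same way on their own markers, served as the nearest classes for comparison.

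A myelinating Schwann cell wraps a segment of a large axon, and its program is driven by the transcription factors SOX10 and EGR2, which switch on the compact myelin proteins, the adhesion molecules that face the axon, and the enzymes that make cholesterol, a lipid the sheath cannot form without. Most of this lipid is made within the Schwann cell. After nerve injury the same cells dismantle their myelin and turn to a repair state marked by factors such as JUN and SHH.

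Values below are given in the order adult, first aged and second aged library. The MSC nuclei carried medians of 2471.5, 3362 and 3768.5 UMIs, and their counts summed to 1926767, 2483849 and 964633 UMIs per library. Levels are counts per 1000000 UMIs in these sums (CPM), which serve to compare 1 gene between libraries and not genes with each other. Free RNA, read from barcodes with 10 to 100 UMIs, was estimated to make up 23.7%, 11.8% and 11.9% of the MSC sums. The estimate took all UMIs of neuronal and erythroid markers in these sums as free RNA. Among these markers are Snap25 and Scn9a, whose UMIs the gate caps, and UMIs from doublets with neurons would count as well. Malat1 took 6.43%, 2.09% and 2.05% of the UMIs in the MSC sums. No cell barcode was shared between the MSC nuclei of different libraries. The labels state that all mice were male, and the data went against this in each library: Xist, which is transcribed from the inactive X chromosome of females, stood at 1869, 1343 and 1361 CPM, whereas the Y-linked genes Kdm5d, Uty and Eif2s3y stayed between 0 and 2.08 CPM. Another Y-linked gene, Ddx3y, which has a close copy on the X chromosome, was at 77.9, 28.2 and 23.8 CPM. The paper's section on animals lists its aged mice as female and its adult mice as both female and male. The sexes of the libraries are therefore not taken from the labels here.

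MSC nuclei made up 5.37% of the adult nuclei (exact 95% binomial interval 4.96 to 5.79, counting error only), 11.0% of the first aged library (10.2 to 11.9) and 7.89% of the second (6.88 to 8.99). Both aged libraries lay above the adult one, at a mean of 9.45% ± 2.21 (SD, n = 2) and a ratio of 1.76. With 1 library against 2 the exact two-sided permutation test cannot give a p below 0.333, and it gave 0.667. It varied with the genes detected, and was 1.29%, 5.25% and 4.51% among nuclei with over 3000 genes. Among nuclei with 1000 to 1500 genes it was 8.53%, 12.1% and 8.96%, so that the adult and the second aged library came close to each other. In the class of 1500 to 2000 genes the values were 4.67%, 16.5% and 10.8%, with the adult library lowest. A minimum of 2000 genes raised the ratio to 2.43.

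**Figure D1:**
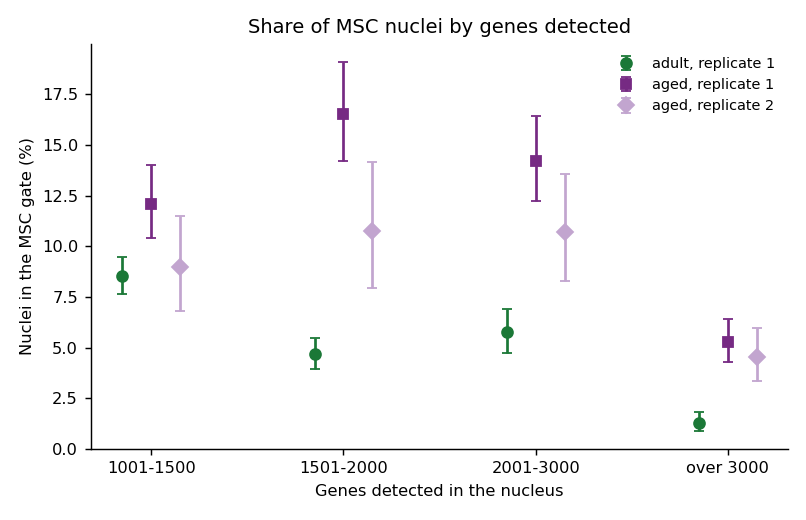
MSC nuclei as a percent of all nuclei (vertical axis) in 4 classes of genes detected per nucleus (horizontal axis), for the adult and the 2 aged libraries, with exact 95% binomial intervals. The adult library was lowest in every class, from 8.53% at 1000 to 1500 genes to 1.29% above 3000 genes, and the gap to the second aged library was smallest in the first class.

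The gate genes chose the nuclei, so their levels are partly set by the gate and are given as a description only. Prx, the periaxin that holds the outer sheath to the basal lamina through dystroglycan, was at 1563, 1741 and 1740 CPM, and its binding partner Drp2 was at 902, 944 and 1062 CPM. Mag, an adhesion protein of the membrane next to the axon, was at 230, 279 and 265 CPM, and Cldn19, a claudin of the sheath's own tight junctions, was at 346, 391 and 356 CPM. Ncmap, a myelin membrane protein, was at 465, 619 and 533 CPM. Fa2h, which hydroxylates the fatty acids of myelin galactolipids, was at 777, 695 and 759 CPM, and Sec14l5 at 365, 473 and 543 CPM.

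A nucleus held a median of 12, 17 and 19 gate UMIs, so most members lay far from the threshold of 3. The nuclei just inside it, with exactly 3 gate UMIs, numbered 14, 14 and 0, and their Pmp22 level was 1848 and 753 CPM in the adult and the first aged library. The nuclei just outside, with 2 gate UMIs from 2 genes, numbered 35, 15 and 5 and had Pmp22 at 453, 589 and 315 CPM. At the other edge, nuclei whose gate sum was 2 to 3 times the counter-gene sum numbered 36, 39 and 16, with Pmp22 at 3178, 2113 and 1480 CPM, and those at 1 to 2 times, left outside, numbered 74, 77 and 35, with Pmp22 at 1842, 1776 and 1990 CPM. Both edges thus had myelin RNA on either side. No doublet caller was run; 223, 206 and 71 members had no UMI of any counter-gene, and 2, 8 and 2 members also met the NMSC or SGC gate.

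The label fitted genes the gate did not use. Pmp22, a tetraspan protein of compact myelin whose dose is altered in common inherited neuropathies, had a UMI in 96.9%, 96.8% and 97.6% of MSC nuclei, against 35.7%, 53.3% and 44.2% of NMSC nuclei and 24.9%, 42.1% and 37.5% of SGC nuclei, at median depths of 2937, 3637 and 4208 UMIs for NMSC and 3355, 7290 and 8106.5 UMIs for SGC. Neither of those classes makes myelin, and whether their Pmp22 UMIs were free RNA or their own transcripts was not tested. With every nucleus thinned to 1000 UMIs the MSC shares were 89.97%, 89.0% and 85.4%, those of NMSC 16.0%, 22.9% and 15.5%, and those of SGC 9.38%, 11.1% and 4.55%.

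Beyond the gate genes, the 10 genes with the highest MSC level over the mean of NMSC and SGC, among genes of 50 CPM or more, are a description of the class and were not tested, since the gate made the contrast. Sptbn5, a spectrin, was 152-fold above the other glia at 239, 539 and 667 CPM. Slc36a2, a proton-coupled transporter of small amino acids, was also 152-fold above and stood level between the libraries at 686, 680 and 659 CPM. Ddn, the gene of dendrin, was 138-fold above at 122, 175 and 183 CPM, and Plk5, of the polo-like kinase family, 93.4-fold above at 56.6, 105 and 163 CPM. The other six carry model names, 4933430M04Rik, Gm12068, A330069K06Rik, 6720432D03Rik, Gm48697 and A330015K06Rik, and were 67.8-fold to 160-fold above. Of these, 4933430M04Rik moved most with age, at 51.4, 490 and 490 CPM (log2 difference 3.16 ± 0.16 SE, adjusted p = 2.05e-10), while A330069K06Rik fell from 834 to 436 and 578 CPM (-0.83 ± 0.13, adjusted p = 0.000379). Gm12068, at 74.2, 654 and 634 CPM, shares bases with 4933430M04Rik on the same strand, so their UMIs may not be separate evidence. Sptbn5 and A330015K06Rik overlap Pla2g4b and Kcnab1, and whether counting used the strand is not given in the sources used here.

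To ask how these cells differed with age, counts were summed over the MSC nuclei of each library and aged was compared with adult by the quasi-likelihood test of edgeR, with Benjamini-Hochberg adjustment over all 13557 genes tested and a threshold of 0.05. The spread came from the 2 aged libraries, with 1 residual degree of freedom, and the lone adult library was taken to vary as they did; the study calls the libraries biological replicates, but which animals went into each is not given. In the aged libraries 499 genes were higher (3.68% of those tested) and 785 lower (5.79%), and the median log2 difference of all genes tested was -0.00208. All 1284 had both aged libraries on the same side of the adult one. That is no separate support, since the spread behind each call came from those 2 libraries. The counts of calls in the gene lists below are to be read beside the 3.68% higher and 5.79% lower of all genes. DESeq2 called 202 genes and nuclei thinned to 1000 UMIs gave 302, against 1284. Of the called genes taken by the naming rule that could be compared, 34 of 64 lost the call with DESeq2, 24 of 55 in thinned nuclei, 19 of 61 in nuclei without counter-gene UMIs and 12 of 66 among nuclei with over 2000 genes. Differences (± SE) are log2, aged over adult, and positive where the aged libraries were higher.

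The myelin proteins did not move as a block. Of 11 tested, 4 fell and 1 rose, at a median of -0.28. With free RNA subtracted 7 fell and 1 rose, at a median of -0.51. Among nuclei with over 2000 genes 3 fell and none rose, at -0.02, and DESeq2 called 2 falls and no rise. The median was -0.36 without the first aged library and -0.13 without the second. Pmp22 (chr11:63128982-63159547, GRCm38) was at 5110, 3624 and 3137 CPM. Both aged libraries lay below the adult one (-0.68, adjusted p = 2.65e-05), and in single nuclei Pmp22 made up a median of 0.435%, 0.328% and 0.250% of the UMIs. Mal, which carries lipids and proteins to the sheath, was at 941, 711 and 609 CPM (-0.59, adjusted p = 0.00147), and was not called by DESeq2 (adjusted p = 0.0703). Mbp, the basic protein of the membrane's inner face, was at 3260, 2690 and 2883 CPM (-0.32 ± 0.08, adjusted p = 0.0179), the smallest fall of these, and its call was lost among nuclei with over 2000 genes (adjusted p = 0.553), in thinned nuclei (adjusted p = 0.107), without counter-gene UMIs (adjusted p = 0.0842) and with DESeq2 (adjusted p = 0.515).

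Pmp2, a fatty acid binding protein of the sheath, went the other way at 41.5, 87.8 and 82.9 CPM (0.96 ± 0.21, adjusted p = 0.00645), and both aged libraries were higher. A Pmp2 UMI was seen in 6.15%, 13.6% and 15.5% of MSC nuclei. Its call was lost among nuclei with over 2000 genes (0.37, adjusted p = 0.408), without counter-gene UMIs (1.11, adjusted p = 0.241) and with DESeq2 (adjusted p = 0.581). Of the genes that did not pass the test, Cnp, a phosphodiesterase of uncompacted myelin, was at 374, 333 and 271 CPM, and Cd9, a tetraspanin, at 902, 880 and 689 CPM. The gap junction genes Gjb1 (56.1, 79.7 and 66.3 CPM) and Gjc3 (228, 289 and 264 CPM) and the tetraspan gene Pllp (302, 313 and 280 CPM) did not pass either.

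**Figure D2:**
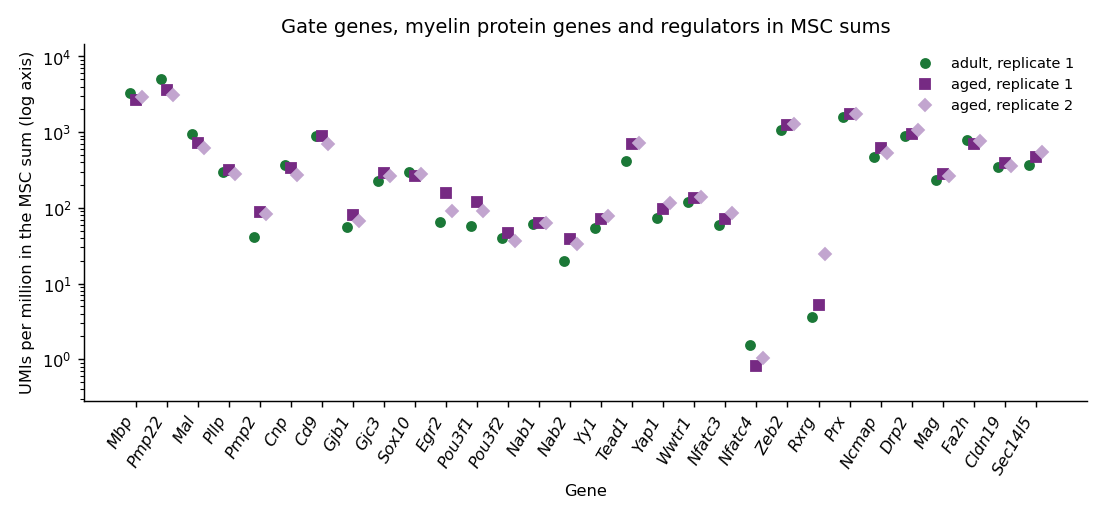
Level in MSC sums (CPM, log axis) of the myelin protein genes, the regulators and the gate genes, left to right, with 1 point per library and gene. Pmp22 fell from 5110 CPM in the adult library to 3624 and 3137 CPM in the aged ones, and the gate genes, whose UMIs chose the nuclei, are shown as a description; levels are not comparable between genes.

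**Figure D3:**
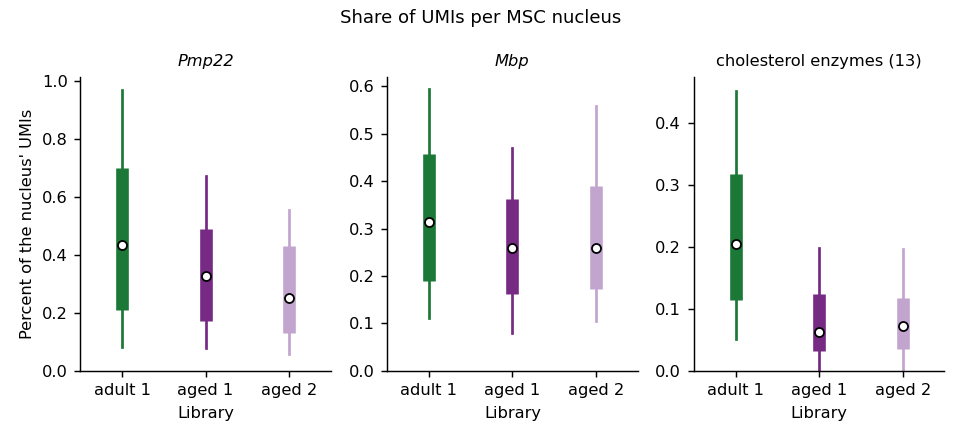
Percent of each nucleus's UMIs taken by Pmp22, Mbp and the 13 cholesterol enzymes together, for MSC nuclei of the 3 libraries; points are medians, thick bars the middle 50% of nuclei and thin bars the 10th to 90th percentile. The medians of Pmp22 were 0.435%, 0.328% and 0.250% and those of the enzymes 0.205%, 0.0622% and 0.0730%, both highest in the adult library, while those of Mbp (0.314%, 0.259% and 0.259%) nearly met.

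The enzymes of the cholesterol pathway fell together. Its enzymes turn acetyl-CoA units into mevalonate, squalene and sterols. Of 13 enzymes tested, 12 fell and none rose, at a median of -1.62 beside -0.00208 for all genes. Their summed level was 2351, 799 and 815 CPM. Under each edgeR setting 12 or 13 of the 13 were lower, DESeq2 called 10, and the median without either aged library stayed at -1.62 or -1.600. Free RNA held these enzymes at 1923, 2041 and 2228 CPM. At its estimated share of each sum this amounts to 456, 242 and 264 CPM, also highest in the adult library, and with free RNA subtracted 12 of the 13 enzymes were called lower (median -2.10).

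Hmgcs1, a synthase of the early pathway, was at 421, 157 and 163 CPM (-1.50 ± 0.13, adjusted p = 3.32e-07). Idi1, an isomerase of the isoprenoid steps, was at 108, 34.2 and 25.9 CPM (-1.87, adjusted p = 1.15e-05). For both enzymes the aged libraries stood well apart from the adult one. Further down, Sqle, which oxidises squalene, was at 105, 39.1 and 36.3 CPM, and Lss, which closes the sterol rings, at 59.2, 13.3 and 16.6 CPM (-2.13, adjusted p = 5.12e-05). Sc5d, a desaturase of the late steps, was at 170, 60.8 and 45.6 CPM (-1.70, adjusted p = 3.96e-06). Dhcr7, a reductase of the last steps, was the exception at 30.6, 16.9 and 15.6 CPM (-0.98, adjusted p = 0.0582). Hmgcs1, Lss and Idi1 overlap other annotated genes.

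The sterol sensing genes were split. Insig1, which retains the sterol sensor in the endoplasmic reticulum, fell with the enzymes at 126, 36.2 and 40.4 CPM (-1.83, adjusted p = 4.61e-06). Srebf2, the gene of the transcription factor that drives this pathway, fell less, at 221, 124 and 148 CPM (-0.82, adjusted p = 0.0013). Srebf1, the related factor for fatty acid genes, was the 1 member of 28 cholesterol and fatty acid genes that rose, at 31.1, 129 and 91.2 CPM (1.79 ± 0.24, adjusted p = 7.3e-05); it overlaps Rai1. Over those 28 genes 19 were lower, with a median of -1.18.

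On the fatty acid side the falls were smaller. Elovl6, which lengthens fatty acids, was at 414, 231 and 254 CPM (-0.87, adjusted p = 0.000117), and the desaturase Fads2 at 140, 84.1 and 76.7 CPM (-0.87, adjusted p = 0.00185). Acly, which supplies cytosolic acetyl-CoA, was at 106, 61.2 and 73.6 CPM (-0.78, adjusted p = 0.0112). Fasn (87.2, 85.8 and 70.5 CPM), Acaca (282, 306 and 331 CPM) and Scd2 (1086, 1322 and 1227 CPM), which build and desaturate fatty acids, did not pass the test. Of the 10 sphingolipid genes tested none was called, with a median of 0.03: Ugt8a, which makes the galactolipids of myelin, was level at 668, 705 and 661 CPM, and Sptlc2, of the first step, stood at 264, 324 and 290 CPM.

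The fall of the enzymes was set against that in the other glia, in a fit over the MSC, NMSC and SGC sums. The library was a block, and 2 residual degrees of freedom were left. These came from the 2 aged libraries alone, so the spread of an adult library was not measured here either. Against NMSC, 6 of 13 were lower in MSC, where 0.563% of all 14925 genes were lower and 0.241% higher, and all 13 differences were below 0 with a median of -1.20. Against SGC, 11 of 13 were lower, beside 1.11% of all genes lower and 0.476% higher, with a median of -1.53. Hmgcs1 differed by -1.26 from NMSC (adjusted p = 0.00695) and by -1.53 from SGC (adjusted p = 0.000539). The summed enzyme level was 1528, 1159 and 1165 CPM in NMSC and 2073, 2097 and 1848 CPM in SGC, so that the adult MSC sum was the highest of the 9 and the aged MSC sums the lowest. These calls varied with the setting. In nuclei of 1500 to 5000 UMIs none of the 13 was called against either class, at medians of -0.82 and -1.38 and 12 of 13 below 0 in both. That range held 536, 401 and 135 MSC, 800, 355 and 163 NMSC and 1494, 44 and 13 SGC nuclei. Thinned nuclei gave 1 and 0 calls, and DESeq2 gave 0 of 7 tested against NMSC and 6 of 12 against SGC. Whether depth itself or the smaller number of nuclei and UMIs lost these calls was not tested.

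**Figure D4:**
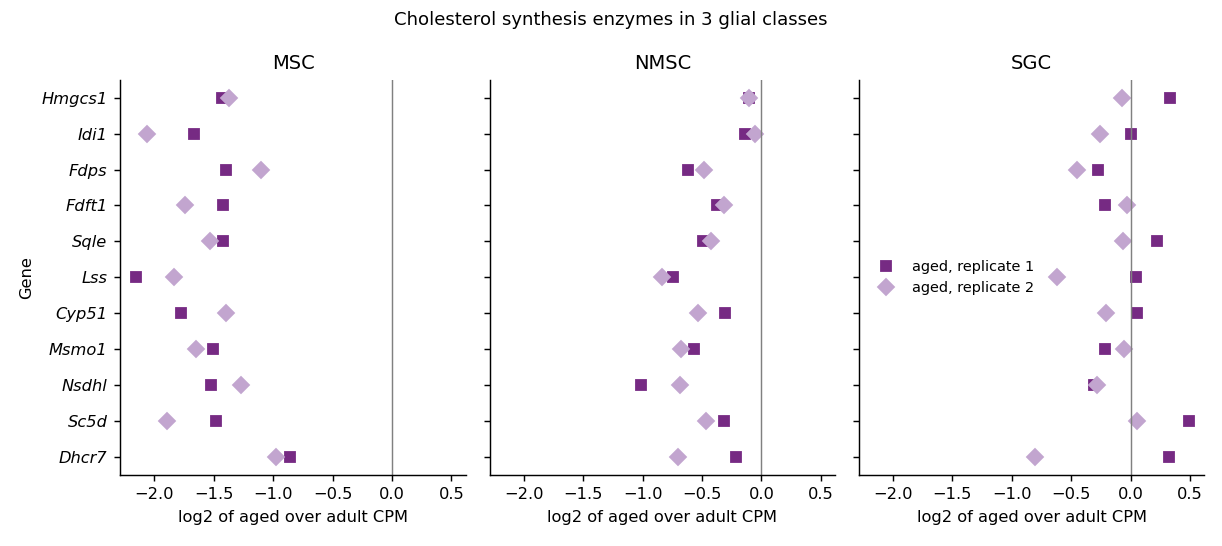
Log2 ratio of each aged library's CPM to the adult library's (horizontal axis) for 11 cholesterol enzymes in MSC, NMSC and SGC sums, with the line at equal levels. In MSC both aged points lie left of the line for every enzyme, as for Idi1 at 108 against 34.2 and 25.9 CPM, while in SGC they scatter around it, and summed levels over all 13 enzymes were 2351, 799 and 815 CPM in MSC against 2073, 2097 and 1848 CPM in SGC.

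Because these genes moved together, the 250 bases before their transcription starts were searched for 2 short motifs on both strands, TCACNCCAC (reverse GTGGNGTGA), a form of the element that sterol-responsive factors bind, and CCAAT (reverse ATTGG), which NF-Y binds. RefSeq promoters were matched for 9 of 15 genes of the pathway, and Sqle, Fdps and Fdft1 were among those not matched. TCACNCCAC was present in 1 of the 9, Hmgcs1, and in 331 of 27025 genes (1.22%). CCAAT was present in 9 of 9, in Dhcr7 at 1 of its 3 listed starts, and in 10133 of 27025 genes (37.5%). The motifs did not overlap. Hmgcs1, with both motifs, and Msmo1 and Idi1, with repeated CCAAT boxes alone, are shown 5′ to 3′ on the gene's strand (RefSeq, GRCm38.p6), with motif letters in capitals. They are at chr13:119690101-119690350 (plus), chr8:64733579-64733828 (minus) and chr13:8885356-8885605 (plus).
Hmgcs1: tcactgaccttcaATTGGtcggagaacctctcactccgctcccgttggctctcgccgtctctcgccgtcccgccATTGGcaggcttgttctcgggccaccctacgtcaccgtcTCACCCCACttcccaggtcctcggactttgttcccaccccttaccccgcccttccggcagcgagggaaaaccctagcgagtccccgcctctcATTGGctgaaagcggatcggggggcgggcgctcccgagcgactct
Msmo1: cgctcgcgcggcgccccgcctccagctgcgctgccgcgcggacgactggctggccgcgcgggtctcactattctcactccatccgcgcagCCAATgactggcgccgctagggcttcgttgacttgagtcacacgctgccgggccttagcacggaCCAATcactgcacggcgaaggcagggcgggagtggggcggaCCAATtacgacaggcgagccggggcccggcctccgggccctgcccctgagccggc
Idi1: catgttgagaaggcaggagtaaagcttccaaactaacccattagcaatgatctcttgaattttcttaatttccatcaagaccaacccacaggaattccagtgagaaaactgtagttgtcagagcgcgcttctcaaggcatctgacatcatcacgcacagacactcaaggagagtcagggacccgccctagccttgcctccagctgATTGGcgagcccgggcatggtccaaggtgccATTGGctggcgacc
In Hmgcs1 the TCACNCCAC match began 137 bases before the start, and CCAAT matches in reverse began 237, 176 and 45 bases before it. In Msmo1 CCAAT began 160, 96 and 55 bases before the start, and in Idi1 its reverse 45 and 14 bases before. Msmo1, a sterol demethylating enzyme, was at 234, 82.1 and 74.6 CPM (-1.65, adjusted p = 7.87e-07), a fall near that of Hmgcs1 although no TCACNCCAC lay in its window. A match is a description of these letters and not evidence that a factor binds there.

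Of the 13 regulators tested, 3 rose and none fell, with a median of 0.35. Egr2, the factor without which myelin does not form, was at 64.9, 159 and 91.2 CPM (0.95 ± 0.24, adjusted p = 0.0168), and its lowest aged value still lay above the adult one. Pou3f1, which acts before Egr2, was at 57.6, 120 and 91.2 CPM (0.83, adjusted p = 0.0134). Tead1, the DNA-binding partner of YAP and TAZ, was at 411, 697 and 714 CPM (0.69, adjusted p = 0.000465). Its rise differed from SGC by 0.91 (adjusted p = 0.0184) and was not called against NMSC (0.18, adjusted p = 0.951). NMSC held it at 253, 376 and 414 CPM. None of the 3 calls was kept in thinned nuclei or in nuclei without counter-gene UMIs, and with DESeq2 or after free RNA was subtracted Tead1 alone kept its own. Subtracting free RNA also gave 1 called fall in the list. For Egr2 the adjusted p was 0.205 thinned (0.79), 0.0514 with free RNA subtracted (0.66), 0.146 without counter-gene UMIs and 0.642 with DESeq2. Pou3f1 overlaps an annotated gene.

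Sox10, the lineage factor that EGR2 works with, stayed level at 297, 266 and 281 CPM. Yap1 (74.2, 97.0 and 116 CPM) and Wwtr1 (118, 134 and 139 CPM), the partners of TEAD1, did not pass the test. The EGR2 co-regulators Nab1 (60.7, 63.6 and 63.2 CPM) and Nab2 (19.7, 39.1 and 33.2 CPM), and Yy1, Pou3f2, Nfatc3, Zeb2 and Rxrg, did not pass either, with differences from -0.03 to 1.67. The largest of these, Rxrg, rested on 7, 13 and 24 UMIs. Nfatc4 had too few UMIs to be tested.

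Most receptors of the axonal signals that set myelination did not pass the test. Of 10 signalling genes 1 rose and 1 fell, with a median of -0.06, beside 3.68% of all genes called higher and 5.79% lower. Nf1, a brake on RAS signalling, was at 471, 645 and 706 CPM (0.42, adjusted p = 0.0226), and Lpar1, a receptor for lysophosphatidic acid, at 166, 117 and 125 CPM (-0.55, adjusted p = 0.0248). Neither call was kept in thinned nuclei, without counter-gene UMIs, where Lpar1 was at 0.068, or with DESeq2. The neuregulin receptor genes Erbb2 (28.5, 35.8 and 35.2 CPM) and Erbb3 (145, 176 and 148 CPM) lay close between the libraries. So did Adgrg6 (212, 222 and 237 CPM), a receptor required to begin myelination, Lgi4 (156, 160 and 164 CPM) and Notch1 (54.0, 50.7 and 54.9 CPM). Adam22, the LGI4 receptor, was at 69.5, 49.9 and 57.0 CPM and Igf1r at 473, 391 and 425 CPM, both lower in each aged library without passing. Nrg1 (78.9, 82.9 and 74.6 CPM) was below its level in free RNA (438, 474 and 474 CPM).

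Some genes by which the cell holds its axon rose. Of 18 axoglial genes tested 5 were higher and none lower, with a median of 0.27. Gldn, the gliomedin that gathers sodium channels at the node, was at 346, 663 and 582 CPM (0.76 ± 0.12, adjusted p = 0.00037). In NMSC it went from 3.75 to 52.4 and 50.5 CPM, so the difference between the classes was -2.86 (adjusted p = 0.000693), a larger rise in NMSC from a far lower level; this call was lost in thinned nuclei. Cadm4, the internodal adhesion molecule facing the axon, was at 225, 420 and 388 CPM (0.76, adjusted p = 0.000673). The membrane skeleton genes Sptbn1 (1092, 1498 and 1534 CPM, 0.38, adjusted p = 0.0136), Ank3 (1768, 2389 and 2456 CPM, 0.36, adjusted p = 0.0105) and Epb41l2 (424, 612 and 556 CPM, 0.38, adjusted p = 0.0469) rose by less. In all 5 the aged libraries lay above the adult one. Thinned nuclei kept 1 call of the list (Gldn), nuclei without counter-gene UMIs and DESeq2 2 each, and subtracting free RNA or a minimum of 500 genes added 1 called fall. Nfasc, whose isoforms build the paranode, stood at 848, 740 and 766 CPM and Ank2 at 749, 785 and 897 CPM, neither passing. Gldn overlaps an antisense gene, Gldnos.

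On the outer face, 2 of 18 basal lamina genes were higher and none lower, with a median of 0.08. Lamb1, a laminin beta chain, was at 323, 564 and 549 CPM (0.70, adjusted p = 0.000649). Its difference from SGC was 0.89 (adjusted p = 0.0295), and that from NMSC was not called (0.75, adjusted p = 0.116). Dtna, a dystrobrevin of the dystroglycan complex, was at 387, 585 and 594 CPM (0.51, adjusted p = 0.00642). In thinned nuclei neither was called, and the list's median was -0.02. Utrn (3098, 3523 and 3422 CPM) and Dmd (1154, 1457 and 1535 CPM) did not pass. Of 13 channel and transporter genes none rose and 1 fell, beside 5.79% of all genes called lower. That gene was Atp1b1, a sodium pump subunit, at 201, 134 and 129 CPM (-0.70, adjusted p = 0.00348). The Atp1b1 call was lost in thinned nuclei (-0.27, adjusted p = 0.768), after free RNA was subtracted (adjusted p = 0.054) and with DESeq2 (adjusted p = 0.503), while Kcna1, of the juxtaparanodal potassium channel, stood at 384, 479 and 414 CPM.

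Genes of the repair and immature Schwann cell were mixed. Of 13 tested, 4 were higher and 1 lower, with a median of 0.78. Among nuclei with over 2000 genes 2 of 11 were higher and the median was 0.18, thinned nuclei and nuclei without counter-gene UMIs each gave 2 higher, DESeq2 1 of 11, and subtracting free RNA 7 of 12 at a median of 1.75. Shh (chr5:28456815-28467256, minus strand, GRCm38), a secreted morphogen that adult Schwann cells make little of unless injured, was at 2.08, 66.4 and 51.8 CPM, from 4, 165 and 50 UMIs (4.74 ± 0.45, adjusted p = 1.25e-06). The UMIs came from few nuclei: a Shh UMI was seen in 0.647%, 8.14% and 8.25% of MSC nuclei. In NMSC the shares were 2.44%, 3.94% and 3.98% and in SGC 0.781%, 3.51% and 1.14%, so the adult MSC share was no higher than in those classes. Thinned, the MSC shares were 0.324%, 3.36% and 2.91%. The rise differed from that in NMSC by 4.60 (adjusted p = 0.00228) and from that in SGC by 4.13 (adjusted p = 0.018); both calls were lost in nuclei of 1500 to 5000 UMIs and in thinned nuclei, at differences between 3.49 and 6.21. Shh overlaps 2 annotated genes on the opposite strand.

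Runx2, a factor of the injured nerve, was at 24.4, 67.6 and 86.0 CPM (1.52, adjusted p = 0.000749). Jun, the driver of the repair state, was at 29.6, 71.7 and 57.0 CPM (1.07, adjusted p = 0.0095). For both genes the adult library was the lowest. The Runx2 call was lost in thinned nuclei (0.78, adjusted p = 0.708) and with DESeq2 (adjusted p = 0.0822). Runx2 was above its MSC level in NMSC (64.1, 142 and 270 CPM) and SGC (121, 151 and 208 CPM) in every library. Its rise was not called against NMSC (0.10, adjusted p = 0.987) or SGC (1.16, adjusted p = 0.0907). Ncam1, an adhesion gene of immature and non-myelinating cells, fell instead, at 277, 103 and 112 CPM (-1.47, adjusted p = 1.34e-06). The fall was larger than in the other classes, with a difference of -0.98 from NMSC (adjusted p = 0.0116) and of -1.19 from SGC (adjusted p = 0.00098). In thinned nuclei the fall in MSC did not pass (-0.56, adjusted p = 0.438). Ncam1 stood above MSC in NMSC (1370, 1022 and 1156 CPM) and SGC (2399, 2076 and 2307 CPM). Free RNA held it at 439, 336 and 327 CPM, also above MSC. The part of RNA from these sources in the MSC values was not tested. Gap43 (68.0, 50.7 and 44.6 CPM) and L1cam (50.9, 57.2 and 67.4 CPM) did not pass. Ncam1 and Runx2 overlap other annotated genes.

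Some immune response genes rose, unequally between the aged libraries. Of 32 interferon-induced genes tested 12 were higher and none lower, with a median of 1.20 that was 0.46 without the first aged library and 1.51 without the second. Among nuclei with over 2000 genes 8 of 26 were higher and 1 lower, at a median of 0.61, and DESeq2 called 1 of 28. Gbp2, a guanylate binding protein, was at 6.75, 118 and 21.8 CPM (3.48 ± 0.68, adjusted p = 0.00246), and Iigp1, an immunity-related GTPase, at 9.34, 73.3 and 17.6 CPM (2.39, adjusted p = 0.00917). Gbp7 was at 12.98, 90.2 and 33.2 CPM (2.31, adjusted p = 0.00204) and Gbp10 at 2.08, 21.7 and 5.18 CPM (2.79, adjusted p = 0.031). The first aged library was the highest for each of them, by several-fold over the second. These rises were not particular to MSC. Gbp2 was at 7.79, 107 and 47.0 CPM in NMSC and at 5.11, 109 and 18.5 CPM in SGC. Iigp1 was at 8.08, 99.7 and 58.3 CPM in NMSC and at 5.77, 118 and 72.7 CPM in SGC. Against NMSC the list's differences had a median of -0.42, with 25 of 33 below 0 and none called. Against SGC the median was -0.44, with 23 of 33 below 0 and 1 called higher in MSC. Rnf213 (143, 216 and 197 CPM) and Xaf1 (51.4, 68.4 and 58.1 CPM) did not pass. Gbp genes are close copies of each other.

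C4b, the complement component that tags surfaces, was at 9.86, 168 and 116 CPM (3.805 ± 0.30, adjusted p = 1.87e-07), the 1 called of 6 complement genes. Both aged libraries were over 10 times the adult one, which held 19 UMIs. On the log2 scale the rise exceeded that in NMSC by 2.29 (adjusted p = 0.00142) and in SGC by 1.85 (adjusted p = 0.0057). Neither call was kept in thinned nuclei. The level of C4b was higher in NMSC (85.1, 288 and 229 CPM) and SGC (49.8, 230 and 181 CPM) than in MSC in every library. Its near copy C4a, at 0, 21.3 and 5.18 CPM, may share its reads. Among 13 class I presentation genes, the peptide transporter genes Tap2 (15.6, 50.3 and 28.0 CPM, adjusted p = 0.0199) and Tap1 (9.86, 30.6 and 18.7 CPM, adjusted p = 0.0466) rose, with a median of 0.78, though neither call was kept among nuclei with over 2000 genes (0 of 11 class I genes, median 0.27) or with DESeq2 (0 of 12), and thinned nuclei gave 0 of 7, while B2m (211, 351 and 257 CPM) and H2-K1 (71.6, 73.7 and 90.2 CPM) did not pass. Set against NMSC and SGC, the class I genes differed by medians of -0.54 and -0.45, and none was called in either comparison. None of 5 class II genes was called, and Cd74 was level at 37.9, 39.5 and 38.4 CPM.

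Macrophage markers moved with these genes: 4 of 7 tested were higher, none was lower, and their summed level was 68.0, 192 and 124 CPM, with Cd163 at no UMI in the adult sum. A UMI of a marker other than Ptprc was present in 46, 132 and 44 MSC nuclei. With those nuclei left out, a choice made after seeing the data, 14 of 31 interferon genes were higher at a median of 1.08, and C4b kept its call. T and B cell markers went down, with 2 of 4 lower and a sum of 58.6, 20.9 and 23.8 CPM.

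Among 9 cell-cycle arrest and senescence genes 1 rose and 1 fell, with a median of 0.26, beside 3.68% of all genes called higher and 5.79% lower. Ccnd1, a cyclin of cell-cycle entry, was at 16.1, 56.8 and 41.5 CPM (1.57, adjusted p = 0.00236), and Cdkn1a, a cell-cycle inhibitor often used as a senescence marker, at 339, 229 and 219 CPM (-0.68, adjusted p = 0.00136). The Ccnd1 call was lost in thinned nuclei (adjusted p = 0.34), without counter-gene UMIs (0.59, adjusted p = 0.844) and without nuclei holding macrophage marker UMIs (0.73, adjusted p = 0.296), the Cdkn1a call among nuclei with over 2000 genes (adjusted p = 0.288), and both with DESeq2. Hmgb1 and Rb1 did not pass. Of 18 clock genes, Arntl, the core activator, fell at 46.2, 12.1 and 7.26 CPM (-2.22, adjusted p = 0.000155), while Dbp (26.5, 59.6 and 56.0 CPM), Per2 (37.9, 85.4 and 71.5 CPM), Nr1d2 (90.8, 170 and 143 CPM) and Cry2 (83.04, 141 and 126 CPM), which lie downstream or repress it, rose by 0.61 to 1.05. The list had 2 higher and 1 lower in thinned nuclei, 1 and 1 without counter-gene UMIs, and none of 18 called with DESeq2. The hour at which tissue was taken is not given in the sources used here. Arntl overlaps another annotated gene.

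Of 14 immediate early and heat shock genes tested none rose and 1 fell, with a median of -0.30, beside 5.79% of all genes called lower. That gene was Hspa8, a chaperone, at 595, 463 and 456 CPM (-0.46, adjusted p = 0.0103). Free RNA held Hspa8 at 2623, 2819 and 2819 CPM, above MSC in every library, and subtracting it left no adult UMI and turned the direction. The call was also lost in thinned nuclei (adjusted p = 0.277) and with DESeq2 (adjusted p = 0.48). Of 9 abundant noncoding RNAs 6 fell and none rose, with a median of -1.33. Bc1, a short cytoplasmic RNA of neurons, was at 393, 4.43 and 4.15 CPM in MSC (-6.57 ± 0.22, adjusted p = 5.25e-13) and at 1258, 22.9 and 16.6 CPM in free RNA. Malat1, a nuclear RNA, fell by 1.72 on the log2 scale (adjusted p = 1.7e-14). Neither fall was particular to MSC. Bc1 was at 420, 8.14 and 5.62 CPM in NMSC and at 354, 2.10 and 1.42 CPM in SGC. Malat1 took 5.99%, 1.83% and 1.91% of UMIs in NMSC and 8.69%, 2.40% and 2.61% in SGC. In all nuclei outside the MSC gate it took 4.97%, 1.45% and 1.60%. Meg3 (685, 280 and 289 CPM) and Rian (92.9, 41.5 and 35.2 CPM), from 1 imprinted locus, fell as well, and both were more abundant in free RNA than in MSC in every library. Neat1, also nuclear, stayed at 3732, 3354 and 3769 CPM.

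**Figure D5:**
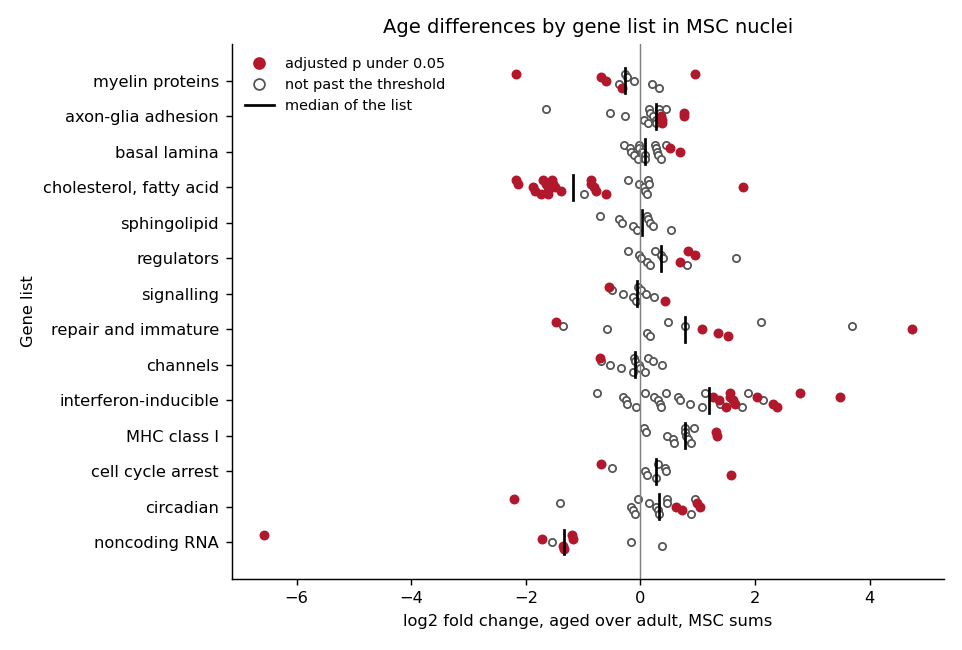
Log2 difference (aged over adult, horizontal axis) of the tested genes of 14 lists in MSC sums, 1 point per gene, filled where the adjusted p was under 0.05, with each list's median as a bar. The noncoding (-1.33) and the cholesterol and fatty acid (-1.18) lists had the lowest medians and the interferon list (1.20) lay to the right, and Shh (4.74) and Bc1 (-6.57) stood farthest out.

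Genes named as marks of MSC subsets rose in the aged libraries, 3 of 3 with a median of 0.86. Besides Pmp2, these were Cldn14, a claudin, at 53.5, 95.8 and 116 CPM (0.86, adjusted p = 0.00967) and Adamtsl1, a matrix protein, at 437, 564 and 728 CPM (0.46, adjusted p = 0.0408). Cldn14 and Adamtsl1 were often seen together: a Cldn14 UMI was seen in 18.4%, 28.1% and 37.6% of nuclei with an Adamtsl1 UMI and in 2.18%, 3.49% and 4.42% of those without. The other pairs were less marked. An Adamtsl1 UMI was seen in 78.9%, 66.2% and 46.9% of nuclei with a Pmp2 UMI and in 30.3%, 34.8% and 44.8% of those without, nearly level in the second aged library. For Cldn14 these shares were 18.4%, 28.6% and 25% with Pmp2 and 6.90%, 10.7% and 18.4% without. These shares were read without thinning, in nuclei whose UMIs spanned 1674.5 to 5265.5, 1810.2 to 8335 and 1779.5 to 8992 (10th to 90th percentile). The part of depth in them was not tested. Nuclei of 1 library are not replicates and no test was made. None of the 3 was called among nuclei with over 2000 genes (median 0.37) or with DESeq2, and 1 of 3 was in thinned nuclei, without counter-gene UMIs and after free RNA was subtracted. Cldn14 and Adamtsl1 overlap other annotated genes. Of 17 genes of inherited neuropathy, 3 rose and 2 fell, with a median of 0.03; one that rose was Arhgef10, a guanine nucleotide exchange factor, at 331, 443 and 502 CPM (0.41, adjusted p = 0.0428).

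By size, the 10 largest rises and the 10 largest falls among called genes with 20 or more UMIs and a proper name were mostly of low level. A few of the rises had no UMI in the adult sum, so the floor of 3 UMIs over the group gives a bound: Cd209c was at least 13.8-fold higher in the aged libraries, Cxcl14, a chemokine, at least 12.9-fold, C4a at least 10.8-fold and Atp6v0d2, a proton pump subunit, at least 5.21-fold. Most of these UMIs came from the first aged library. With the second alone the bound stayed at 15.3-fold for Cd209c but was 5.99-fold for Cxcl14 (9 UMIs) and 3.33-fold for C4a (5 UMIs), and the 3 UMIs of Atp6v0d2 gave none. Igha, the constant gene of immunoglobulin A made by plasma cells, was at 0.519, 40.7 and 77.7 CPM in MSC and at 1.58, 69.8 and 107 CPM in free RNA. Shh, Nr1h4, the bile acid receptor gene (0.519, 16.1 and 15.6 CPM), Vsig10l (0.519, 7.65 and 11.4 CPM), C4b and Tnfaip2 (2.60, 43.1 and 27.0 CPM) made up the rest. In NMSC, Nr1h4 (2.02, 22.2 and 35.8 CPM) and Tnfaip2 (1.44, 41.4 and 14.0 CPM) were higher in the aged libraries as well. In SGC they were at 1.65, 0.701 and 1.42 CPM and at 3.96, 8.41 and 1.42 CPM. The rule that named these genes required both aged libraries on the same side of the adult one.

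Among the falls, Mobp, a myelin gene of oligodendrocytes in the central nervous system, had 51, 0 and 0 UMIs in MSC and was at least 30.4-fold lower, and the histone gene H2ac18 was at least 13.7-fold lower. H2ac18 was lower outside MSC too, at 6.64, 0.326 and 0 CPM in NMSC and 6.76, 0 and 0 CPM in SGC. Free RNA held it at 14.8, 0.343 and 0.352 CPM. Of the 5 oligodendrocyte markers tested 2 were lower, while the 8 markers summed to 320, 296 and 345 CPM, nearly all of it from Aspa (272, 287 and 344 CPM), an enzyme gene that NMSC (493, 381 and 461 CPM) and SGC (758, 611 and 747 CPM) held at a higher level. UMIs of Mog, Mobp, Ermn or Hapln2 were seen in 15, 2 and 1 MSC nuclei. With those nuclei left out, again a choice made after seeing the data, 1619 genes were called. Bc1 and Dsp, a desmosome gene at 30.6, 0 and 1.04 CPM in MSC and 574, 0.686 and 1.76 CPM in free RNA, fell in both. Enpp6, Klra8, Prg4, Tspan11 and Cracdl were at 10.4 to 37.4 CPM in the adult library and at most 4.15 CPM in an aged one. Cracdl was also lower in NMSC (36.4, 8.80 and 7.02 CPM), SGC (33.7, 1.40 and 0 CPM) and free RNA (84.0, 28.1 and 25.2 CPM).

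Vmn1r30, named as a vomeronasal receptor gene, stood apart from these in its level. It was at 1805, 48.3 and 45.6 CPM (-5.34 ± 0.12, adjusted p = 2.48e-15) and had a UMI in 87.9%, 18.6% and 20.4% of MSC nuclei. The share in NMSC was 8.395%, 3.58% and 3.19%, and in SGC it was 5.41% in the adult library. In the aged libraries 0 of 171 and 0 of 88 SGC nuclei had one, which by the floor of 3 nuclei allows up to 1.75% and 3.41% of nuclei with a UMI. Thinned, it was 71.2%, 6.19% and 6.80% in MSC. Free RNA held 109, 17.1 and 5.8 CPM. The gene shares bases with an unnamed gene on the same strand, so that the counted RNA may belong to either.

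Markers of other cells moved both ways. Beside the rise of the macrophage markers, of 12 neuronal markers 6 fell and none rose, at summed levels of 3306, 2368 and 2014 CPM in MSC against 14676, 21453 and 18673 CPM in free RNA. The free RNA share was itself estimated from these and the erythroid markers, so their fall and that share are not separate observations. Of 4 SGC markers 3 fell, at 148, 48.3 and 56.0 CPM, and of 6 endothelial markers 3, at 176, 93.4 and 43.5 CPM. Fibroblast markers, 6 tested with none called, were at 975, 1079 and 898 CPM, and NMSC markers, with 1 of 6 higher, at 314, 412 and 429 CPM. The gate capped the UMIs of 6 counter-genes, of which Snap25 and Scn9a are in the neuronal list, Bcan and Cnmd in the SGC list, Scn7a in the NMSC list and Col1a1 in the fibroblast list. Without them, 5 of 10 neuronal markers fell, from 3065 CPM in the adult library to 1854 CPM in the second aged one, and of the other SGC markers Fabp7 fell and Kcnj10 did not pass, at a sum of 88.7, 34.6 and 32.1 CPM. The part of these cells' RNA in the MSC values was not tested beyond the settings given.

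Finally, some genes changed with age in MSC in another way than in both other glia. Ncam2, a neural cell adhesion gene, was at 343, 63.6 and 58.1 CPM in MSC, at 1624, 881 and 1088 CPM in NMSC and at 3212, 2424 and 3055 CPM in SGC, a difference of -1.66 from NMSC (adjusted p = 0.000183) and of -2.16 from SGC (adjusted p = 3.72e-06). Lrp1b, a large endocytic receptor, fell in MSC at 199, 66.4 and 37.3 CPM while NMSC stood at 259, 409 and 411 CPM and SGC at 113, 993 and 843 CPM. Pde4b, a cyclic AMP phosphodiesterase, was at 156, 33.8 and 16.6 CPM in MSC, at 171, 278 and 169 CPM in NMSC and at 79.5, 281 and 76.9 CPM in SGC. For both genes the aged MSC values were the lowest of all 9 sums. In thinned nuclei the Ncam2 differences were -1.04 and -0.67 and did not pass, while that of Lrp1b from SGC kept its call. Rims1, which overlaps another gene, was named for its difference from NMSC alone (1.89). It rose in MSC at 139, 417 and 398 CPM and stood at 314, 294 and 216 CPM in NMSC.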

How the data were processed

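The authors aligned reads and counted transcripts with Pipseeker, and the submitters' notes give the build mm10. The deposited files hold raw UMI counts per gene and barcode, before the cell filter of the study, with 3 libraries of 167664164, 95647106 and 69045987 UMIs in all. Barcodes with more than 1000 genes were kept (11518 adult, 5130 and 2611 aged nuclei), and the study's removal of low-quality and doublet clusters was not repeated. Nuclei were gated on marker UMIs as described, and counts were summed per library and class, since nuclei are not replicates. The members, gene lists and tests were chosen with earlier results of these data known.

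Sums were tested in R 4.3.3 with edgeR 4.0.16 (TMM, filterByExpr, prior count 0.125, quasi-likelihood test, adjusted p threshold 0.05), in 1 fit of MSC sums and in 1 fit of 3 classes with library as a block, both tested on simulated data. DESeq2 1.42.0, RLE factors, no filter, other gates and depths, and free RNA subtraction were alternatives. Intervals are Clopper-Pearson and cover counting error only. Python 3.11.15, numpy 2.4.6, scipy 1.17.1 and pandas 2.3.3 served for the rest. Gene positions are those of GENCODE M21 (GRCm38), which held 32149 of 32227 gene identifiers. Named genes were the whole myelin, regulator and signalling lists, up to 4 called and 2 uncalled genes of each other list, the 10 largest called changes each way with 20 or more UMIs and no model name, the 5 smallest p of each class comparison, and the 10 genes highest over the other glia. Further members of the cholesterol, interferon, clock, repair, axoglial and noncoding lists, Arhgef10 and the sex-linked genes were named after their values were seen. Some genes of the lists are not reported here by name.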

Additional observations from a re-analysis of the deposited data

Results flagged for a closer look

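In 10 comparisons, the 5 with the smallest p against each class, the age difference in MSC differed from that in another glial class by the test of the difference itself (edgeR, aged over adult, MSC minus the other class, log2). Against NMSC these were Pde4b (-3.01), Lrp1b (-2.48), Slc24a2 (-2.38), Rims1 (1.89) and Ncam2 (-1.66). Against SGC they were Lrp1b (-4.84), Pde4b (-3.75), Ptprz1 (-2.38), Ncam2 (-2.16) and Ctnnd2 (-1.97).

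Slc24a2, a calcium exchanger gene, was at 242, 56.8 and 46.6 CPM in MSC and at 305, 395 and 293 CPM in NMSC, and free RNA held 268, 312 and 304 CPM. Ctnnd2, a delta-catenin gene, was at 336, 70.9 and 73.6 CPM in MSC against 4189, 3480 and 3934 CPM in SGC and 554, 354 and 308 CPM in free RNA. Ptprz1, a receptor phosphatase gene, was at 121, 25.4 and 25.9 CPM in MSC against 1301, 1544 and 1361 CPM in SGC and 122, 102 and 60.4 CPM in free RNA. In these the adult MSC level lay within a factor of 2 of the free RNA of the same library, and the share of free RNA in the adult MSC sum was the highest of the 3. Its part in the differences was not tested. With nuclei thinned to 1000 UMIs, the differences against SGC of Ctnnd2 (-0.25, adjusted p = 0.918) and Ptprz1 (-0.29, adjusted p = 0.935) did not pass, nor did those against NMSC of Slc24a2 (-0.91) and Lrp1b (-1.805, adjusted p = 0.122), while Lrp1b against SGC did.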

How the results depend on the processing

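The ratio of the MSC share, 1.76, was 1.47 to 2.05 with an aged library left out and 2.43 among nuclei with over 2000 genes. The 1284 age calls in MSC fell to 576 in nuclei without counter-gene UMIs, 302 in thinned nuclei and 202 with DESeq2, and were 1121 after free RNA was subtracted, 50.3% of them higher against 38.9%. The share called higher was 47.5% with DESeq2. The 120 calls against NMSC became 253 without the low-count filter, 22 with DESeq2, 5 in thinned nuclei and 39 in nuclei of 1500 to 5000 UMIs, a range added after seeing the data. The 236 calls against SGC became 87 with DESeq2, 21 in thinned nuclei and 8 at 1500 to 5000 UMIs. Of those 21, 20 were higher in MSC and the median of all genes was 0.56, against 0.056 before thinning; the calls higher were 30.1% before thinning, 12.6% with DESeq2, 12.5% in the depth range and between 23.4% (RLE size factors) and 37.6% (no low-count filter) under the others. Against NMSC the calls higher were 30.0%, against 18.2% under DESeq2, 3 of 5 thinned and 46.2% in the depth range. The cause of these shifts was not tested.

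Directions turned in 5 results. Subtracting free RNA gave 8.29 for Nrg1, 7.27 for Gap43 and 10.71 for Hspa8, where the estimate left no adult UMI and the fitted value is no fold. Lpar1 was 0.068 without counter-gene UMIs. In thinned nuclei, the difference from SGC was 0.34 for Lss. Of 927 comparisons of the 69 named genes that were called, over the settings that gave a test, 822 kept the call and 103 lost it. The other 2 turned. The 822 include 69 from leaving out barcodes shared between libraries. That setting removed no MSC nucleus, so these calls could not be lost and are no support. A single aged library against the adult one leaves no residual degree of freedom, so those values carry no test. No paired analysis was possible because the adult group has 1 library and shares 1 number with the aged group.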
